A study of Mus musculus with 2 samples.

Results

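The genes described are 10 enzymes and transporters of hepatic gluconeogenesis and glycogen metabolism, Pcx, Pck1, Pck2, Fbp1, G6pc, Slc37a4, Gys2, Gys1, Gbe1 and Pygl. They were taken by symbol from the gene and transcript tables, and all 10 were found among the 43346 Ensembl genes of the gene tables. The samples were fetal livers of B6NCrl mice at embryonic day 16.5, with no treatment and no second genotype. Both libraries came from pools of male and female embryos, of 41 embryos in replicate 2 and of a number the labels do not give in replicate 1, so each value is an average over animals. RNA above 200 nt was sequenced from 10 ng of total RNA per library, and expected counts (reads estimated per gene, which need not be whole) summed to 48820712 in replicate 2 and 44477766 in replicate 1. Both libraries carry the same donor identifier, and the spread between them, which is all that an SD over n = 2 measures here, may be partly technical. The tissue label fitted its defining markers. All 8 hepatocyte markers reached 1 TPM in each library, and their median was 5990 TPM in replicate 2 and 5332 TPM in replicate 1. The samples were not hepatocytes alone. All 8 erythroid markers also reached 1 TPM, with a median of 406 TPM in replicate 2 and 416 TPM in replicate 1. TPM is a transcript abundance per transcript length relative to all transcripts of a library.

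Gluconeogenesis makes glucose from lactate, amino acids and glycerol. Pyruvate carboxylase and PEP carboxykinase bypass the pyruvate kinase step of glycolysis, fructose-1,6-bisphosphatase bypasses phosphofructokinase, and glucose-6-phosphatase with its transporter releases free glucose from the endoplasmic reticulum. Glycogen is built by glycogen synthase and the branching enzyme and broken down by glycogen phosphorylase. In rodents the fetus receives glucose from the mother, hepatic glycogen is laid down late in gestation, and glucose release by the liver is known to start around birth.

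The 10 genes ran from 120 TPM, the mean of Pygl, to 0.18 TPM, that of G6pc. A level of 1 TPM was reached in both libraries by 8 of 10, against 27.9% of all Ensembl genes and 52.2% of protein-coding genes. A level of 20 TPM was reached in both by 7 of 10, against 17% of protein-coding genes. The median of the 10 was 49.2 TPM in replicate 2 and 40.2 TPM in replicate 1, and that of expressed protein-coding genes 11 TPM and 10.7 TPM. From highest to lowest the order was Pygl, Fbp1, Pcx, Gys2, Slc37a4, Gbe1, Pck2, Gys1, Pck1 and G6pc. Pygl and Fbp1 changed places between the libraries, and the values of Fbp1 and Pcx and of Pcx and Gys2 overlapped. From Gys2 downwards no neighbours in the order overlapped. Because these are whole livers, fewer cells of a type and less RNA per cell cannot be told apart.

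**Figure D1:**
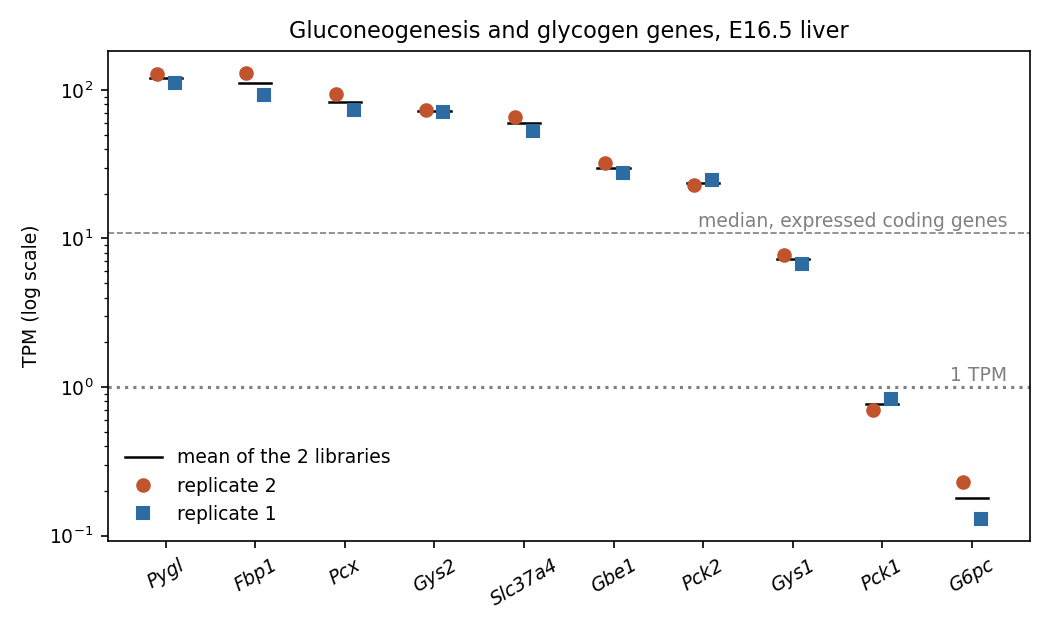
Level of each gene in TPM on a log axis, with circles for replicate 2, squares for replicate 1 and a bar for their mean. The broken line is the median of expressed protein-coding genes and the dotted line 1 TPM. 7 genes lie above 20 TPM, Gys1 lies near 7 TPM, and Pck1 and G6pc lie below 1 TPM in both libraries.

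The entry into gluconeogenesis was well expressed. Pcx encodes pyruvate carboxylase, which makes oxaloacetate from pyruvate in mitochondria. It stood at 93.9 TPM in replicate 2, from 17247 expected counts, and at 73.0 TPM in replicate 1, from 12405. It was above 90.3% of expressed protein-coding genes. Pcx (ENSMUSG00000024892.11) spans chromosome 19, 4510472 to 4621752, on the plus strand, as positioned in GENCODE release M21 on GRCm38, the assembly called mm10 in the tables.

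Phosphoenolpyruvate was represented by the mitochondrial enzyme rather than the cytosolic one. Pck2, which encodes mitochondrial PEP carboxykinase, stood at 23.0 TPM in replicate 2 and 24.6 TPM in replicate 1. Pck1, which encodes the cytosolic form and is a classical target of glucagon and insulin in adult liver, stood at 0.70 TPM in replicate 2 and 0.83 TPM in replicate 1. Its 81 and 89 expected counts give 95% Poisson intervals of 0.556 to 0.87 TPM and 0.667 to 1.02 TPM, which cover counting error only. Pck2 was thus 32.8 times Pck1 in replicate 2 and 29.6 times in replicate 1, and held 97% and 96.7% of the TPM of the pair. Pck2 (ENSMUSG00000040618.6) lies on chromosome 14, 55540266 to 55551242, and Pck1 (ENSMUSG00000027513.7) on chromosome 2, 173153048 to 173159273, both on the plus strand.

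Fbp1, which encodes the fructose-1,6-bisphosphatase of liver and kidney, was the most variable of the abundant members. It stood at 130 TPM in replicate 2 and 92.4 TPM in replicate 1, a mean of 111 ± 26.5 TPM (SD, n = 2). Its paralog Fbp2, the muscle form, stood at 2.89 TPM in replicate 2, from 161 expected counts, and at 0.29 TPM in replicate 1, from 15. Fbp1 therefore held 97.8% of the TPM of the pair in replicate 2 and 99.7% in replicate 1. Fbp1 (ENSMUSG00000069805.6) lies on chromosome 13, 62864753 to 62888282, on the minus strand.

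The last step was split between an abundant transporter and a scarcely detected catalytic subunit. Slc37a4 encodes the carrier that brings glucose-6-phosphate into the endoplasmic reticulum, and it stood at 66.2 TPM in replicate 2 and 53.0 TPM in replicate 1. G6pc, which encodes the liver catalytic subunit of glucose-6-phosphatase, stood at 0.23 TPM in replicate 2 and 0.13 TPM in replicate 1. These rest on 24 and 13 expected counts, with 95% Poisson intervals of 0.147 to 0.342 TPM and 0.0692 to 0.222 TPM. They lie above the 3 counts taken as the limit of detection, which equal 0.0285 TPM in replicate 2 and 0.0308 TPM in replicate 1. The transporter was 288 times its partner in replicate 2 and 408 times in replicate 1.

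The other glucose-6-phosphatase genes did not reach the transporter's level either. G6pc3, the ubiquitous form, stood at 7.14 TPM in replicate 2 and 6.79 TPM in replicate 1, and held 96.2% and 98.1% of the TPM of the 3 catalytic genes. G6pc2, the form of pancreatic islets, had 2 expected counts in replicate 2 and 0 in replicate 1. Slc37a4 (ENSMUSG00000032114.8) spans chromosome 9, 44396852 to 44402968, and G6pc (ENSMUSG00000078650.2) chromosome 11, 101367561 to 101377903, both on the plus strand.

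Of the glycogen enzymes, the liver forms led their families. Gys2, which encodes liver glycogen synthase, stood at 73.3 TPM in replicate 2 and 71.6 TPM in replicate 1. Gys1, the synthase of muscle and most other tissues, stood at 7.76 TPM in replicate 2 and 6.69 TPM in replicate 1. Gys2 was 9.45 times Gys1 in replicate 2 and 10.7 times in replicate 1. Expected counts of Gys1 were not whole within 0.01 of a read, as happens when reads are divided between genes. The span of Gys1 overlaps that of Ruvbl2 on the other strand by 3253 bases, and Ruvbl2 stood at 49.4 TPM in replicate 2 and 50.4 TPM in replicate 1. Since no strand-specific step is named in the labels, the level of Gys1 is uncertain. Gys2 (ENSMUSG00000030244.7) lies on chromosome 6, 142422613 to 142473109, on the minus strand, and Gys1 (ENSMUSG00000003865.10) on chromosome 7, 45434844 to 45456619, on the plus strand.

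Gbe1, which encodes the branching enzyme, stood at 32.1 TPM in replicate 2 and 27.4 TPM in replicate 1. Pygl, which encodes liver glycogen phosphorylase, was the highest of the 10 by mean, at 129 TPM in replicate 2 and 112 TPM in replicate 1. The ratio of Pygl, which degrades glycogen, to Gys2, which makes it, was 1.76 in replicate 2 and 1.56 in replicate 1. It depends on a short Gys2 model described below. With coding models of 1000 nt or more only, the ratio is larger. Pygl then stood at 128 TPM in replicate 2 and 110 TPM in replicate 1, and Gys2 at 53.5 and 49.9 TPM. Gbe1 (ENSMUSG00000022707.12) lies on chromosome 16, 70313949 to 70569716, on the plus strand, and Pygl (ENSMUSG00000021069.12) on chromosome 12, 70190811 to 70231488, on the minus strand.

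The other phosphorylases were lower. Pygb, the brain form, stood at 27.3 TPM in replicate 2 and 26 TPM in replicate 1. Pygm, the muscle form, stood at 9.80 TPM in replicate 2 and 5.11 TPM in replicate 1. Pygl held 77.6% of the TPM of the 3 phosphorylase genes in replicate 2 and 78.2% in replicate 1, and Gys2 held 90.4% and 91.5% of that of the 2 synthase genes.

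**Figure D2:**
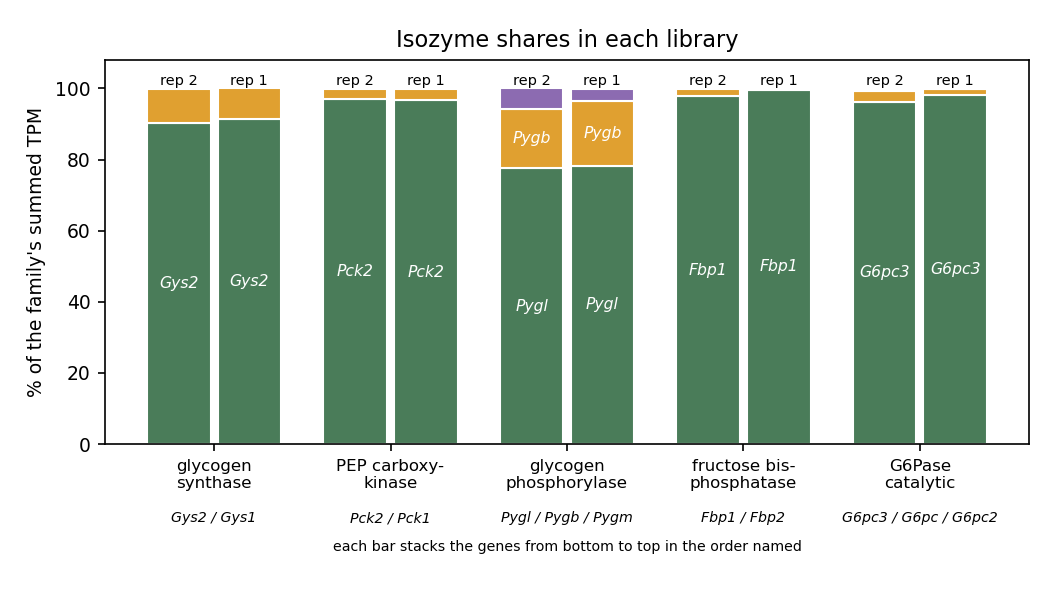
Share of each isozyme in the summed TPM of its family (vertical axis, percent), with replicate 2 left of replicate 1 in each family. Gys2, Pck2, Fbp1 and G6pc3 each hold over 90% of their family in both libraries and Pygl holds 77.6% and 78.2%.

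The 10 genes had 32 transcript models in the tables, and the leading model of each gene was the same in both libraries for all 10. The leading model held 90% or more of the gene's TPM in both libraries in 6 genes, 3 of which have only 1 model. For those 3 the same lead was fixed in advance, and the share of all genes with the same lead was not computed. Pygl was led by Pygl-201, with 98.7% of its TPM in replicate 2 and 97.9% in replicate 1, and Gys1 by Gys1-201, with 91.8% and 90.1%. Pck1 reads were all assigned to Pck1-201. In Pcx and Gbe1 the leading model held under 60%. Its deposited interval overlapped that of the next model in each library, so the lead in these genes is not resolved. For Gbe1 in replicate 2 the intervals were 8.72 to 12 TPM for Gbe1-201 and 7.69 to 11.5 TPM for Gbe1-205.

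Pcx was divided almost evenly between models with different starts. Pcx-201, which starts at position 4510472, stood at 48.5 TPM in replicate 2 and 38.4 TPM in replicate 1. Pcx-202, which starts at 4594346, stood at 45.4 TPM in replicate 2 and 34.5 TPM in replicate 1. The deposited TPM intervals of the models overlapped in each library, at 42.1 to 54.8 against 37.9 to 50.6 in replicate 2 and 34.4 to 43.2 against 28.8 to 37.6 in replicate 1, so neither was above the other beyond that error. The starts given here are those of GENCODE M21. In the M21 sequences the models share a run of 3948 nt and differ before it by 146 nt in Pcx-201 and 96 nt in Pcx-202. They also differ at the other end, where Pcx-201 runs on for 54 nt after the shared run and Pcx-202 ends with it. Pcx-202 is 4044 nt there and 4125 nt in the deposited tables, so the model that was quantified differs from the one compared. The sequence upstream of each start is shown because the pair differs there. Both are the 250 bases before a RefSeq start (GRCm38.p6, plus strand, 5′ to 3′), chr19:4510222-4510471 for the upstream start and chr19:4594069-4594318 for the downstream one, which RefSeq places 27 bases before that of Pcx-202. Capitals mark the CCAAT box (CCAAT) and the GC box (GGGCGG) on either strand.
Pcx upstream start: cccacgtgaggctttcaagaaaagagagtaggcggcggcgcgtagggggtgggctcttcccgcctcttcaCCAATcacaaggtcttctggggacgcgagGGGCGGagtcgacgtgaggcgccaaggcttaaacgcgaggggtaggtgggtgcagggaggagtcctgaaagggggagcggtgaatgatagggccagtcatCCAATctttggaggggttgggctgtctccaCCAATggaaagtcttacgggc
Pcx downstream start: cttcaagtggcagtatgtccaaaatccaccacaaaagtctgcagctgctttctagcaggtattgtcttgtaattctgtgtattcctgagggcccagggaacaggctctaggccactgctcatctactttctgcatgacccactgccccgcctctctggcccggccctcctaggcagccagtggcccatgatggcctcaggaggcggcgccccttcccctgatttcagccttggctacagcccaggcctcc
The upstream sequence has a ratio of observed to expected CpG of 0.75, above 77.1% of the 32851 RefSeq promoters of that length, and holds 3 CCAAT boxes and 1 GC box. The downstream sequence has a ratio of 0.197, above 29.3%, and none of the motifs searched.

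Fbp1 differed between the libraries in the make-up of its transcripts. The full-length Fbp1-201, of 1479 nt, held 79.2% of the TPM in replicate 2 and 86.4% in replicate 1. Fbp1-203, a model of 612 nt that starts within the gene at position 62872758, stood at 26.6 TPM in replicate 2, from 620 expected counts, and at 11.8 TPM in replicate 1, from 254. Its deposited intervals, 22 to 30.8 TPM and 8.15 to 15.4 TPM, did not overlap. Fbp1-201 alone stood at 103 TPM in replicate 2 and 79.8 TPM in replicate 1, so both models were higher in replicate 2.

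The levels of Gys2 and Gbe1 depend in part on short models. Gys2-202, of 314 nt, held 27% of the gene's TPM in replicate 2 and 30.2% in replicate 1, but only 3.02% and 3.51% of its expected counts. Without it, Gys2 as Gys2-201 stood at 53.5 TPM in replicate 2 and 49.9 TPM in replicate 1. With coding models of 1000 nt or more only, an alternative chosen after the values were seen, Slc37a4 came before Gys2 in the order of means, at 59.6 ± 9.31 against 51.7 ± 2.55 TPM (SD, n = 2 each). Under the same setting Gbe1 stood at 21.5 TPM in replicate 2 and 17.2 TPM in replicate 1, so that Pck2 came before it, and 6 rather than 7 of the 10 genes reached 20 TPM in both libraries. Gbe1 had 3 models of similar TPM. Gbe1-201 stood at 10.6 TPM in replicate 2 and 10 TPM in replicate 1, Gbe1-203, also coding, at 9.72 and 6.87 TPM, and Gbe1-205, a retained intron model of 658 nt, at 9.79 and 8.57 TPM. The retained intron model held 30.5% and 31.2% of TPM, but 8.13% and 8.53% of expected counts.

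**Figure D3:**
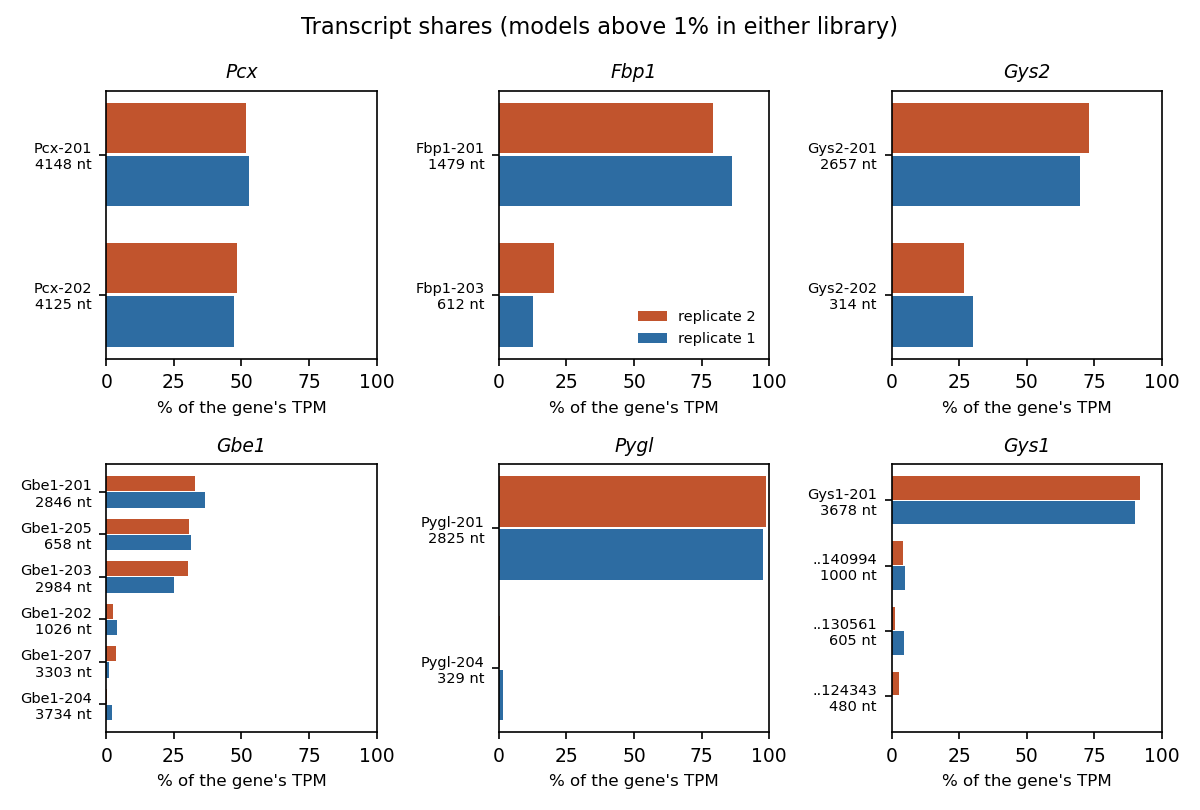
Share of each transcript model in its gene's TPM (horizontal axis, percent) for the 6 genes with more than 1 model in use, with replicate 2 above replicate 1 for each model. Names beginning with 2 dots are Gys1 models that GENCODE M21 does not list. Pcx is divided near evenly between its 2 models, and Fbp1-203 takes 20.5% in replicate 2 and 12.7% in replicate 1.

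Upstream sequence was compared between the members because they differ so widely in level. RefSeq starts were found for 9 of the 10 genes, 12 in all. The lowest members, G6pc and Pck1, and the highest, Fbp1 and Pygl, are shown as the 250 bases before the start (RefSeq, GRCm38.p6, 5′ to 3′ on the gene's strand). They are chr11:101367466-101367715 (plus strand) for G6pc, chr2:173152823-173153072 (plus strand) for Pck1, chr13:62888283-62888532 (minus strand) for Fbp1 and chr12:70227684-70227933 (minus strand) for Pygl. The GENCODE M21 starts of G6pc-201 and of Pck1-201, which took all Pck1 reads, lie within the windows shown, upstream of the RefSeq starts. Capitals mark matches on either strand to the TATA box (TATAAA), the CCAAT box, the GC box and the core of the cyclic AMP response element (TGACG).
G6pc: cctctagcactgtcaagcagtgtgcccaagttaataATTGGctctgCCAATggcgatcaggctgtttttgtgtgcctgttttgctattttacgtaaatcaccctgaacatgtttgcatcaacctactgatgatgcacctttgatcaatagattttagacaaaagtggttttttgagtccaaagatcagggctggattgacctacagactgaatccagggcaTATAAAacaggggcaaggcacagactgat
Pck1: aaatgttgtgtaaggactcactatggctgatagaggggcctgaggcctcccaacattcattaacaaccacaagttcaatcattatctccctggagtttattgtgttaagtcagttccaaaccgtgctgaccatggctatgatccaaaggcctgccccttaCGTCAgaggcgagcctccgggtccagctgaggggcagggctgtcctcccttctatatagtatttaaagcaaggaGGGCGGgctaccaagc
Fbp1: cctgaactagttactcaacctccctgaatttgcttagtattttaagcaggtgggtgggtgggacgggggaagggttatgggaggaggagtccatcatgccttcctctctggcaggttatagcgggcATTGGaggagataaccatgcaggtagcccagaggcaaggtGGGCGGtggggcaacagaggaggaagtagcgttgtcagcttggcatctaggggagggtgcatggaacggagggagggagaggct
Pygl: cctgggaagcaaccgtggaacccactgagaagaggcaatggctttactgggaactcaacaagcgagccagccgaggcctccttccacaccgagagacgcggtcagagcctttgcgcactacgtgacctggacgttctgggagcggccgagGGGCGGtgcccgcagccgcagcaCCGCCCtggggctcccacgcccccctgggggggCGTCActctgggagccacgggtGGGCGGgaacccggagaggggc
In the G6pc window a TATA box lies 29 to 24 bases before the start, and in the Pck1 window a response element core lies 90 to 86 bases before it, as one does 44 to 40 bases before the start of Pygl. Observed over expected CpG was 0.172 for G6pc, 0.31 for Pck1, 0.297 for Fbp1 and 0.67 for Pygl, against a median of 0.373 over all promoters. The highest and lowest genes were thus not set apart by CpG in these windows, where Fbp1 lay between G6pc and Pck1.

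Over the 12 windows, the TATA box was found in 2 (12.4% of all promoters), the response element core in 4 (17.8%), the GC box in 8 (32.7%) and the CCAAT box in 5 (33.8%). Of the 12 windows, 3 belong to Slc37a4 and 2 to Pcx, and the Slc37a4 windows at the upstream starts overlap. The full response element TGACGTCA, which contains that core, was in 0 of 12 windows (1.55% of all promoters), as were the forkhead core TGTTTAC (3.17%), the C/EBP core TTGCNNAA (9.56%) and the HNF4 core CAAAGTCCA (0.384%). No match says only that these letters are not in these windows.

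Between the libraries the members differed by less than 2-fold. Each gene's TPM + 1 in replicate 2 was divided by that in replicate 1, and the log2 of this ratio was centred on the median of the 12017 genes whose expected counts averaged at least 100. A gene was counted as past the fold when the ratio was 2-fold or more and the deposited TPM intervals did not overlap. This was met by 0 of the 8 members with such counts, against 0.358% of all genes, so it does not set the members apart from other genes. Pck1 and G6pc had too few counts for the comparison. With 1 library against 1 there is no p-value.

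Smaller differences mostly ran the same way. Of the 8 members, 7 were higher in replicate 2, and their median centred ratio was 0.19. For all genes the centring itself sets these values to 50% and 0.00. Over the 3931 of these genes with a mean of 20 TPM or more, the median was -0.05, with quartiles of -0.14 and 0.05. The deposited intervals did not overlap for 5 of 8, all higher in replicate 2, against 25.4% of genes in either direction and 14.3% higher in replicate 2. Those shares are over all 12017 genes and not over genes with counts like those of the members, on which the width of the intervals depends. Fbp1 had the largest centred log2 ratio, 0.47, with a 95% counting interval of 0.42 to 0.52. Pcx followed at 0.34 (0.31 to 0.37) and Slc37a4 at 0.30 (0.24 to 0.35). The value of Fbp1 includes the short Fbp1-203, at 26.6 TPM in replicate 2 and 11.8 TPM in replicate 1. Fbp1-201 alone stood at 103 and 79.8 TPM, a smaller difference, so the lead of Fbp1 over Pcx rests in part on the short model. Gbe1 stood at 0.20, Pygl at 0.19, Gys1 at 0.17 and Gys2 at 0.02, and Pck2 was lower in replicate 2 at -0.11 (-0.18 to -0.04). These intervals cover counting error only, and the spread of the centred ratio over all genes was 0.17 (interquartile range scaled to an SD). Scaled to the added spike-in RNA, which shifts all ratios by about the same amount, the median was -0.13 for the members and -0.35 for all genes, and only 1 of the 8 members was higher in replicate 2. Centred on the hepatocyte markers, a setting chosen after the values were seen, the median of the members was 0.07.

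Markers of several other tissues were also higher in replicate 2. Hepatocyte markers had a median centred log2 ratio of 0.13, with 6 of 8 higher in replicate 2, from -0.02 to 0.21. Stellate and mesenchymal markers had a median of 0.22, with 5 of 5 higher in replicate 2 and a summed level of 258 TPM in replicate 2 and 209 TPM in replicate 1. Erythroid markers had a median of 0.04, macrophage markers of 0.12 and endothelial markers of 0.07. Skeletal muscle markers had a median of 1.15, all 5 were higher in replicate 2, and their summed level was 275 TPM in replicate 2 and 116 TPM in replicate 1, with Acta1 at 182 TPM and 76 TPM. Gut markers summed to 35.5 TPM in replicate 2 and 13.3 TPM in replicate 1, and pancreas markers to 31.3 and 13.6 TPM. Bile duct markers summed to 18.2 and 6.34 TPM, with Krt19 at 8.28 and 2.5 TPM. The bile duct markers were uneven, with centred log2 ratios from 0.14 to 1.92 and deposited intervals that did not overlap for only 2 of the 4. Kidney markers summed to 0.09 TPM in replicate 2 and 0.16 TPM in replicate 1, and Umod had no counts in either. The muscle isozymes went the same way, Pygm with a centred log2 ratio of 0.80 and Fbp2 with 161 expected counts in replicate 2 against 15 in replicate 1. The part of these other cells and tissues in the ratios of Fbp1, Pcx, Slc37a4 and Gys1 was not tested.

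**Figure D4:**
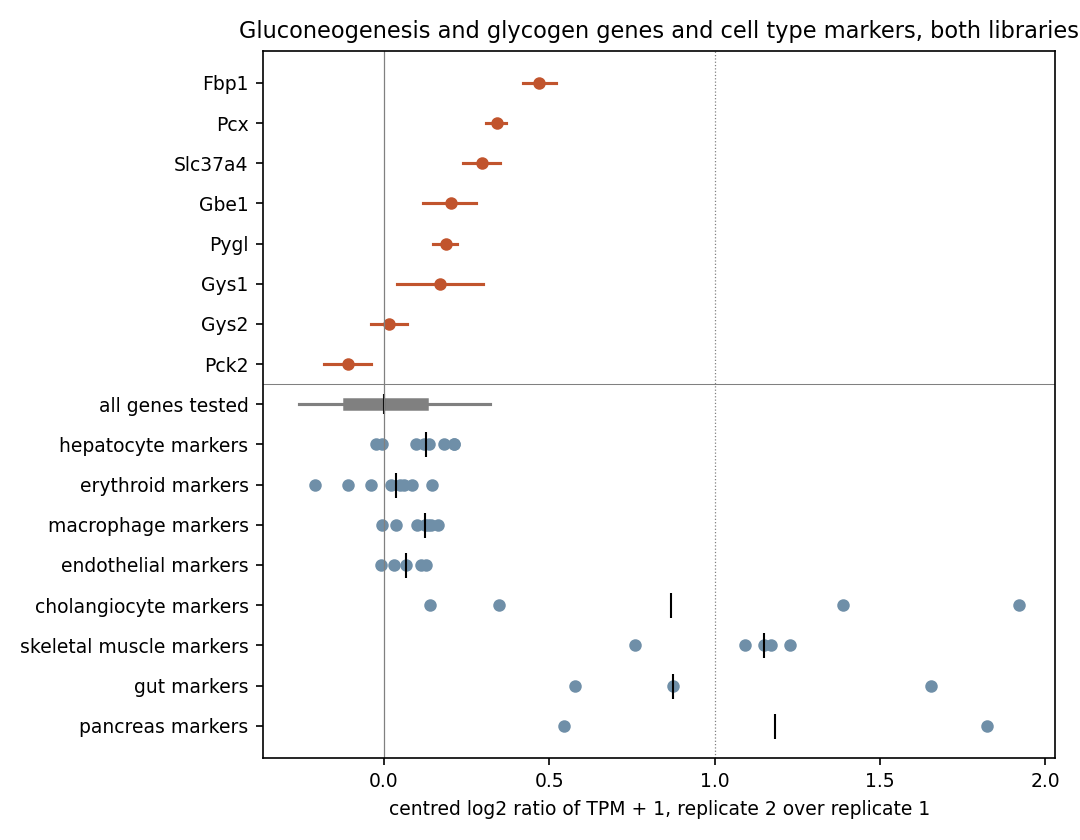
Horizontal axis, centred log2 ratio between replicate 2 and replicate 1, from TPM + 1. Orange points are the 8 gluconeogenesis and glycogen genes with enough counts, with 95% counting intervals; the grey bar gives the 25th to 75th and the line the 5th to 95th percentile of all 12017 genes; blue points are single marker genes and black ticks their medians. The medians of the muscle, gut, pancreas and bile duct (cholangiocyte) markers lie between 0.87 and 1.18, and the members run from -0.11 to 0.47. The pancreas median rests on 2 of 4 markers, at 0.54 and 1.82, and the gut median on 3 of 4, from 0.58 to 1.66.

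The genes around these 10 in the pathway were described with lists. The 8 enzymes that work in both directions of glycolysis were all expressed, with a median of 367 TPM in replicate 2 and 354 TPM in replicate 1, from Gapdh at 1004 ± 40.3 and Eno1, the enolase, at 547 ± 1.41 to Pgk1, phosphoglycerate kinase, at 152 ± 0.304 TPM (SD, n = 2). Of the 11 genes of the opposing glycolytic steps, 10 were expressed, with a median of 19.5 TPM in replicate 2 and 18.2 TPM in replicate 1. Pkm, the pyruvate kinase of most tissues, stood at 133 ± 2.05 and Pklr, that of liver and red cells, at 91.6 ± 1.41 TPM.

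All 16 genes of substrate supply were expressed, with a median of 57.8 TPM in replicate 2 and 55.5 TPM in replicate 1. Ldha, which converts between lactate and pyruvate, stood at 1838 ± 91.2 TPM and Mpc2, a subunit of the mitochondrial pyruvate carrier, at 268 ± 16.4 TPM. The alanine transaminase gene Gpt was lowest at 2.34 ± 0.382 TPM. Slc2a2, the hepatocyte glucose transporter GLUT2, picked out after its values were seen, stood at 35.5 TPM in replicate 2 and 36.8 TPM in replicate 1.

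Of 23 accessory genes of glycogen metabolism, 16 were expressed, with a median of 10.0 TPM in replicate 2 and 9.29 TPM in replicate 1. Pgm1, a phosphoglucomutase, stood at 172 ± 20.0 and Ugp2, which makes the UDP-glucose used by glycogen synthase, at 66.0 ± 5.52 TPM. Phkg1, the muscle catalytic subunit of phosphorylase kinase, shared the lowest level, 0.075 ± 0.0212 TPM, with Ppp1r3a, the muscle glycogen-targeting subunit of protein phosphatase 1. Of the 18 with enough counts, 15 were higher in replicate 2, and their median centred log2 ratio, 0.16, was near the 0.19 of the 8 members with enough counts.

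Transcription regulators of the pathway were low, 16 of 18 expressed, with a median of 4.00 TPM in replicate 2 and 3.56 TPM in replicate 1. Ppara, a nuclear receptor of the fasting response, stood at 41.4 ± 5.61 and Nr3c1, the glucocorticoid receptor, at 21.8 ± 0.141 TPM. Cebpb, a factor of the acute-phase response, was lowest at 0.47 ± 0.0849 TPM. All 10 genes of hormone signalling were expressed, with a median of 20.4 TPM in replicate 2 and 18.4 TPM in replicate 1. Prkar1a, a regulatory subunit of protein kinase A, stood at 97.3 ± 2.56 TPM and was highest, and Irs1, an insulin receptor substrate, was lowest at 1.43 ± 0.113 TPM. Of the receptor genes, Insr, for insulin, stood at 21.5 ± 1.75 TPM and Gcgr, for glucagon, at 17.2 ± 1.1 TPM, both named after their values were seen. A link between these levels and those of the hormone target genes Pck1 and G6pc, below 1 TPM, was not tested.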

How the data were processed

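Total RNA above 200 nt from 2 libraries of E16.5 liver was sequenced. Per the text deposited with the tables, reads were quantified on mm10 with GENCODE annotation M4, and the column names are those of RSEM. Aligner and software versions are not given in the sources used here. In the tables, the deposited expected counts estimate how many reads came from each gene or transcript. The deposited TPM and posterior mean TPM have the same total in each library, and the deposited FPKM entered only as an alternative. The deposited percent columns give a transcript's share of its gene and were recomputed from TPM. The deposited interval bounds, a signal on the TPM scale, carry no stated level.

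Symbols, coordinates and biotypes came from GENCODE M21, matched on IDs without version (42462 of 43346 Ensembl genes), so positions are those of M21 and not of M4. Means and SDs are over the 2 libraries. Counting intervals are exact (Poisson for a level, Clopper-Pearson for a ratio) and cover counting error only, since the labels name no molecular identifiers. A pseudocount of 1 was added to TPM for ratios, which understates the change of low genes. The 2-fold comparison was tested before use on simulated data, with planted changes above 2-fold and counting intervals in place of the deposited ones. That simulation does not bear on the smaller differences described for the members. Scaling factors came from edgeR 4.0.16 (TMM) and DESeq2 1.42.0, both in R 4.3.3, after expected counts were rounded to integers. Other steps used python 3.11.15 with pandas 2.3.3, scipy 1.17.1, matplotlib 3.10.9 and numpy 2.4.6.

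The genes and lists were chosen with earlier results of these data known. The genes named are the 10 members, all 5 paralogs listed, the 2 highest and the lowest of each other pathway list (some of these are not reported here), and, of the 12 marker lists, the highest or lowest gene where a result touches the list. Neutrophil markers had a median of 528 TPM in replicate 2 and 443 TPM in replicate 1, megakaryocyte markers of 29 and 25 TPM, and stellate and mesenchymal markers of 57.1 and 51.5 TPM. Gene by gene, the median centred log2 ratio was 0.02 for the neutrophil markers and 0.06 for the megakaryocyte markers. Slc2a2, Insr and Gcgr were added after their values were seen, and Ruvbl2 for its overlap with Gys1. Transcript models are named where they held 10% or more of a gene or led it.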

Additional observations from a re-analysis of the deposited data

How the results depend on the processing

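The counts of expressed members (8 to 10 under 5 alternatives), of members past the fold (0 under all 9 alternatives) and of members with the same leading transcript (10 under both alternatives) did not change by over 1.5 times. The same lead was fixed in advance for the 3 genes with only 1 model. The median TPM of the members, 44.7, ran from 40.2 to 49.2 over the libraries taken singly. It became 37.8 with coding models of 1000 nt or more. Rescaled over the Ensembl genes that have a symbol and are not globin genes, it became 73.3. The part of the globin genes alone in this was not tested. The median centred log2 ratio, 0.19, lay between 0.17 and 0.21 under 7 alternatives, was 0.07 when centred on hepatocyte markers, and when scaled to the spike-ins was -0.13 while the median of all genes was -0.35. Spike-ins took 3.19% of expected counts in replicate 2 and 2.5% in replicate 1, and the cause was not tested. The Gys2 to Gys1 ratio, 10.1, was 9.45 to 10.7 in single libraries, 5.73 on expected counts, which are not divided by length, and 7.9 on the longer coding models. The Pck2 to Pck1 ratio, 31.2, was 29.6 to 32.8 in single libraries, 28 on posterior mean TPM and 40.5 on expected counts. The settings with longer coding models and with centring on hepatocyte markers were chosen after seeing the data. No paired analysis was possible because the design has 1 group. Depth limits what is said of G6pc, at 24 and 13 expected counts.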
